A study of Homo sapiens with 6 samples.

Results

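The epidermal kallikreins KLK5, KLK6, KLK7, KLK8, KLK9, KLK10, KLK11, KLK12, KLK13 and KLK14 were taken from the deposited expression table by gene symbol, and all 10 were found among its 58735 genes. RNA was sequenced from HaCaT cells, a human keratinocyte line that immortalised spontaneously, labelled wild type, in 3 libraries of cells given dacomitinib for 48 h and 3 control libraries. Dacomitinib binds EGFR and its family members irreversibly and blocks their kinase activity, and treatment began at 70% confluence. The design text attaches 0.1% DMSO to the experimental group, and the sources used here give neither the dose of dacomitinib nor what the control cells received. No label tells whether replicate libraries stem from different cultures, and a p-value therefore reflects the variation among these libraries, possibly only technical. The 3 dacomitinib columns were assigned by elimination, since the controls' columns carry the initial of control, and every direction below rests on that assignment.

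Kallikreins are secreted serine proteases, made as inactive proenzymes and activated by cutting off a short propeptide. In the outer epidermis they form a cascade that cuts the proteins holding corneocytes together, so that cells can be shed. KLK5 and KLK14 are trypsin-like members that activate others, KLK7 is the chymotrypsin-like member, and LEKTI, the product of SPINK5, inhibits several of them. Keratinocytes also release active kallikreins that cut protease-activated receptors and antimicrobial peptide precursors.

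Dacomitinib-treated cells held more RNA of KLK5, KLK8, KLK10 and KLK11 than control cells. The call of KLK11 in the fit on FPKM was lost without the second or the third dacomitinib library. KLK12 was also higher, but it passed the filter for its test only through the dacomitinib libraries. The levels of KLK6 and KLK7 did not pass the test in either direction, and KLK9, KLK13 and KLK14 were at or near the detection limit. RNA of SPINK5 was far lower in dacomitinib-treated cells. Levels are given in FPKM, which scales fragments by the length of the gene and the size of the library, so that genes can be compared per length, and tests are dacomitinib minus control.

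The 10 genes lie side by side on the minus strand of chromosome 19 (GRCh38), from KLK5 at 50943303 to the end of KLK14 at 51084245, a span of 140.9 kb. Promoter windows of 250 bases before and 50 bases after a transcription start were read from RefSeq (GRCh38.p14), which matched 9 of the 10 members with 16 starts. The windows are shown 5′ to 3′ on the strand of the gene. That of KLK5, the member with the most RNA, is chr19:50952989-50953288, that of KLK12, the member with the largest relative difference, is chr19:51034953-51035252, and 1 of the 3 windows of KLK7, an abundant member that did not pass the test, is chr19:50983868-50984167. Capitals mark matches to GGGCGG, a motif of the SP and KLF factors, on either strand.
KLK5: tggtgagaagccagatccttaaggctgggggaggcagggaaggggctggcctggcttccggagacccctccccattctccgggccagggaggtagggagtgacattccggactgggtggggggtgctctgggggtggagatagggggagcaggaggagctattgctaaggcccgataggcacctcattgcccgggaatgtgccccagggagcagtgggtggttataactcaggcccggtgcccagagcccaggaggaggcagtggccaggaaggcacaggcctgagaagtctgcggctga
KLK12: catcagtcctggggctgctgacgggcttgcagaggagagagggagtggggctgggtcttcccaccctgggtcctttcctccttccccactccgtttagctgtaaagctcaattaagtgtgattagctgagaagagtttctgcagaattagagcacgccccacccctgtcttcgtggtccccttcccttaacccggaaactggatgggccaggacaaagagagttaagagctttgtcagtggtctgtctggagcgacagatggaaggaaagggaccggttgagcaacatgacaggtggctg
KLK7: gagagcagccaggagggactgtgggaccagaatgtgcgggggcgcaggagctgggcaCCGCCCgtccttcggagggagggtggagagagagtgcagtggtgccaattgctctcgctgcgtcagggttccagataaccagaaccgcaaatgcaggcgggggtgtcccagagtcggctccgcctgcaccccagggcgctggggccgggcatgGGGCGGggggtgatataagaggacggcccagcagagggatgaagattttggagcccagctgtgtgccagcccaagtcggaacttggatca
GGGCGG or its reverse complement had 2 matches in the KLK7 window shown and none in either of the other windows shown. Among other members that rose, a KLK11 window (chr19:51026567-51026866) had 3 matches. The other KLK11 window and the KLK10 windows had none, and KLK8 was the member without a window. Of the 16 members' windows, 10 held it, against 45.0% of 35116 windows of the same length from all genes. The AP-1 motif TGANTCA, searched on both strands like the others, stood in none of the 16 and in 7.71% of all windows. The FOXO motif GTAAACA stood in none of the 16 and in 3.42% of all windows. The core promoter motif TATAAA also stood in none of the 16, against 11.5% of all windows. A match describes letters in a window and not a bound site, and some windows of the same gene overlap.

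KLK5 (ENSG00000167754, chromosome 19, 50943303 to 50953093), a trypsin-like protease that activates other kallikreins, was the most abundant member. Its levels were 104.8, 94.7 and 111.6 FPKM in the dacomitinib libraries, against 64.9, 67.3 and 67.0 FPKM in the control libraries. Every dacomitinib library lay above every control library. The means were 104 ± 8.51 FPKM with dacomitinib and 66.4 ± 1.28 FPKM in controls (SD, n = 3 each), a ratio of 1.56. The difference was 0.63 (SE 0.06) in log2(FPKM + 1), with an adjusted p of 0.000223 by limma over all 13748 genes with a mean of at least 1 FPKM. In bulk RNA, more cells that express a kallikrein and more RNA per cell cannot be told apart. KLK14 (ENSG00000129437, 51077495 to 51084245), the other trypsin-like activator, was close to the detection limit. It had 5, 10 and 9 fragments in the dacomitinib libraries and 8, 12 and 21 in the control libraries, and the groups overlapped in FPKM. In a second limma fit, on fragments, KLK14 differed by -0.89 (SE 0.54, adjusted p 0.165), which did not pass the threshold of 0.05.

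KLK7 (ENSG00000169035, 50976482 to 50984099), the chymotrypsin-like protease of the stratum corneum, had 8.99, 8.49 and 9.14 FPKM in the dacomitinib libraries and 10.5, 10.4 and 9.05 FPKM in the control libraries. The groups overlapped, since the third control library lay among the dacomitinib libraries. The difference of -0.15 (SE 0.07) on the log2(FPKM + 1) scale had an adjusted p of 0.0936 by limma, so KLK7 was not called. Its sign depended on the scaling of the libraries: it was 0.15 when FPKM were rescaled to TPM, and it was called lower, at -0.21 with an adjusted p of 0.0210 by limma, without the third control library.

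KLK8 (ENSG00000129455, 50996007 to 51002711), a trypsin-like protease also called neuropsin, had 19.5, 17.1 and 19.6 FPKM in the dacomitinib libraries. The control libraries held 10.4, 8.07 and 10.6 FPKM of it, all below the dacomitinib libraries. The mean with dacomitinib was 1.93 times that of controls, and the difference of 0.89 (SE 0.11) passed with an adjusted p of 0.000516 by limma. In the control libraries KLK8 and KLK7 lay at overlapping levels, while in the dacomitinib libraries KLK8 stood above KLK7 in all 3. Of the KLK8 exon bases, 40.1% are shared on the same strand with AC011473.4, an annotated gene that runs on into KLK9 and held 12 fragments with dacomitinib and 2 in controls, so reads could be divided between them.

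KLK10 (ENSG00000129451, 51012739 to 51020175), a kallikrein with little known protease activity, had 28.1, 25.3 and 25.2 FPKM in the dacomitinib libraries, against 18.6, 17.9 and 16.6 FPKM in the control libraries. The groups did not overlap. Its mean was 26.2 ± 1.63 FPKM with dacomitinib and 17.7 ± 1.00 FPKM in controls (SD, n = 3 each), and the difference of 0.54 (SE 0.06) had an adjusted p of 0.000405 by limma.

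KLK11 (ENSG00000167757, 51022216 to 51028039), a trypsin-like member, was scarcer, at 2.38, 3.16 and 3.14 FPKM in the dacomitinib libraries and 1.41, 1.75 and 0.546 FPKM in the control libraries. Each dacomitinib library lay above each control library, and the third control library was the lowest. The difference was 0.84 (SE 0.23, adjusted p 0.0170 by limma) on the log2(FPKM + 1) scale. The call was lost without the second dacomitinib library (adjusted p 0.0537) or the third (0.0551) in the limma fit on FPKM. The fit on fragments, which adds no pseudocount of 1 FPKM, put the difference at 1.36 (SE 0.29, adjusted p 0.000532 by limma). Without the third control library that value was 0.86 (adjusted p 0.00403 by limma), still called higher.

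KLK12 (ENSG00000186474, 51029092 to 51035230), a trypsin-like protease, reached a low level with dacomitinib and was barely detected in controls. The dacomitinib libraries held 40, 50 and 57 fragments, and the control libraries 1, 4 and 0. These correspond to 1.64 ± 0.257 FPKM with dacomitinib and 0.0622 ± 0.0758 FPKM in controls (SD, n = 3 each). The ratio of summed fragments, relative to library size, was 25.7, with an exact 95% interval from 10.8 to 80.2 that covers counting error only. KLK12 was below the mean of 1 FPKM needed for the fit on FPKM. In the fit on fragments it rose by 4.84 (SE 0.65, adjusted p 2.86e-06 by limma), and it passed the filter of a mean of 10 fragments only through the dacomitinib libraries. Of its exon bases, 9.04% lie opposite those of AC011473.3, an antisense gene with 11, 20 and 19 fragments in the dacomitinib libraries and 1, 0 and 5 in the control libraries, and whether counting used strand is not given in the sources used here.

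KLK6 (ENSG00000167755, 50958631 to 50969673), a trypsin-like protease also called neurosin, had 5.32, 4.88 and 4.54 FPKM in the dacomitinib libraries and 3.72, 4.59 and 3.99 FPKM in the control libraries. The groups overlapped by the lowest dacomitinib and the highest control library. The difference of 0.21 (SE 0.09) was not called, with an adjusted p of 0.0733 by limma. It was called higher after rescaling to TPM, at 0.55 with an adjusted p of 0.00255 by limma, and without the second control library, at 0.28 with 0.0354. KLK13 (ENSG00000167759, 51056206 to 51065114), a trypsin-like member, had 1, 0 and 1 fragments in the dacomitinib libraries and 9, 6 and 1 in the control libraries. The ratio of the summed fragments, relative to library size, was 0.109, with an exact 95% interval from 0.0122 to 0.464 for counting error. The spread between the control libraries was wide. KLK9 (ENSG00000213022, 51003111 to 51009634) had 2, 0 and 0 fragments with dacomitinib and none in the 3 control libraries, under the 3 fragments that a count of 0 allows. Of the KLK9 exon bases, 93.7% are shared on the same strand with AC011473.4, so reads of KLK9 could have been assigned to that gene or left out. KLK9 and KLK13 entered neither fit.

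**Figure D1:**
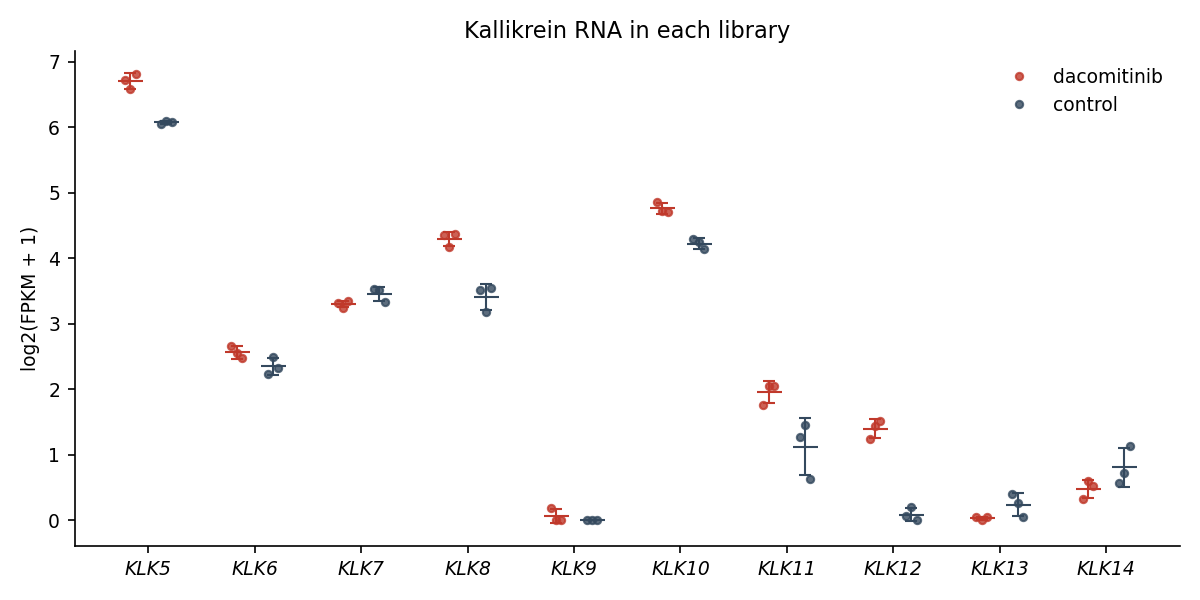
Level of each kallikrein in each library, in log2(FPKM + 1), with dacomitinib libraries left of control libraries. Points are libraries, and lines are the mean ± SD of 3. KLK5, KLK8, KLK10, KLK11 and KLK12 show dacomitinib points above all control points, while those of KLK6, KLK7 and KLK14 overlap.

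In the fit on FPKM, 6 of the 10 members passed the filter, of which 4 rose (KLK5, KLK8, KLK10 and KLK11) and 0 fell. Among all genes in that fit, 25.4% were called higher and 34.8% lower. The members were called higher at a larger share, but they were chosen with earlier results of these data known. The shares are therefore only a description, and their difference was not tested. The members' median difference was 0.59, against -0.06 over all genes tested. In the fit on fragments, 8 members passed the filter, KLK12 only through the dacomitinib libraries and KLK14 only through the control libraries. Of the 6 members with a mean of at least 10 fragments in both groups, the same 4 rose and 0 fell, while 29.5% of 16278 genes were called higher and 32.7% lower. The median of these 6 members was 0.60, against 0.01 over all genes. Those 16278 genes passed a looser filter, a mean of 10 fragments over all libraries together. Rescaling to TPM moved the median of all genes to 0.23 and that of the members to 0.91, with 5 of 6 members called higher and 0 lower, beside 42.0% of all genes called higher and 19.8% lower.

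The deposited scaling set the libraries' sizes at 1.05, 1.09 and 1.08 times their own sums of fragments with dacomitinib and at 0.946, 0.954 and 0.954 times in controls. The libraries held from 14960650 to 16179273 fragments. Fragments of mitochondrial genes made up 4.61% to 4.90% with dacomitinib and 7.38% to 8.08% in controls, and the part of this in the results was not tested. KLK5, KLK8 and KLK10 were called higher in all 17 alternatives of the fit on FPKM and all 11 of the fit on fragments. Among these, scaling each library by its median ratio to the geometric mean repeated the deposited scaling and could not change a call. KLK12, which passed the filter on fragments only through the dacomitinib libraries, was called higher in all 10 alternatives of that fit that held it.

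**Figure D2:**
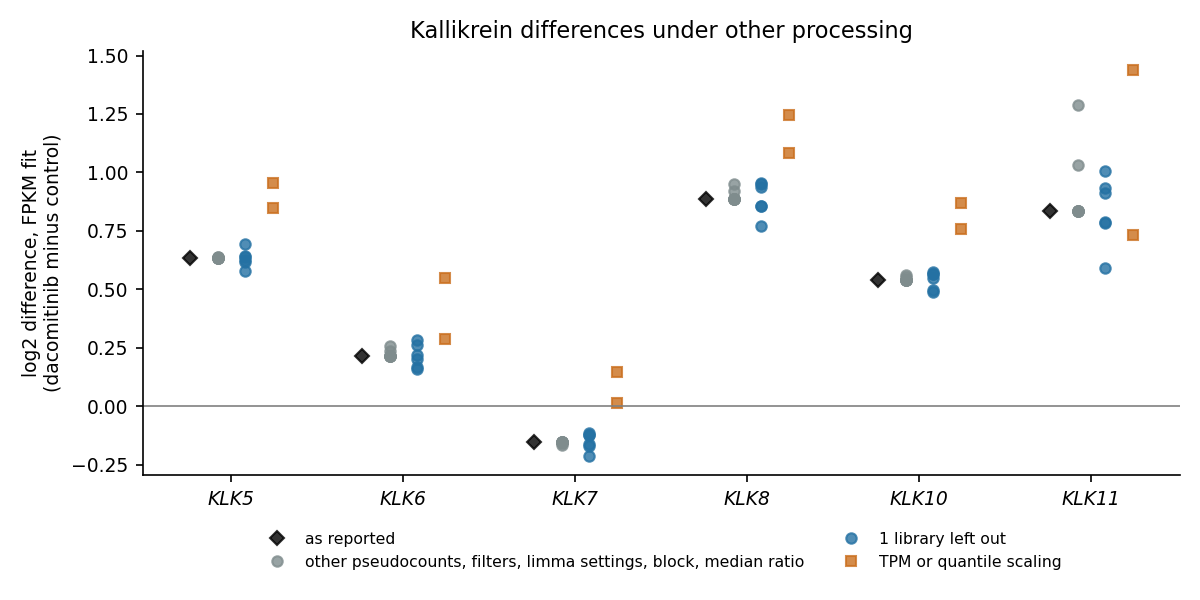
Difference of the 6 kallikreins in the FPKM fit, as reported and under other processing, on the log2 scale (dacomitinib minus control). Each point is 1 setting. TPM and quantile scaling move all 6 members upward apart from KLK11 under quantile scaling, and KLK7 crosses 0 under both.

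Summed over the 10 members, the level was 167 ± 10.3 FPKM in the dacomitinib libraries, from 156 to 176, and 110 ± 0.985 FPKM in the control libraries, from 109 to 111 (SD, n = 3 each). KLK5 alone made up 61.9% ± 1.48 of that sum with dacomitinib and 60.3% ± 1.33 in controls. KLK5, KLK10 and KLK8 together made up 88.8% ± 0.681 with dacomitinib and 85.2% ± 1.19 in controls. In the dacomitinib libraries the order of levels was KLK5, KLK10, KLK8, KLK7, KLK6, KLK11, KLK12 and KLK14, with no overlap between neighbours. In the control libraries KLK5 and KLK10 again led, KLK7 and KLK8 overlapped, KLK6 followed, KLK11 and KLK14 overlapped, and KLK13, KLK12 and KLK9 were near 0.

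Between KLK1 at 50819148 and the end of KLK14 at 51084245 the table lists 25 genes, the 10 members among them. KLK1, the tissue kallikrein that releases kinins, is the cluster's outermost gene on the other side. It held 30, 32 and 29 fragments in the dacomitinib libraries and 45, 57 and 43 in the control libraries, with every dacomitinib library below every control library. It fell by 0.43 (SE 0.13, adjusted p 0.0282 by limma) on the log2(FPKM + 1) scale, and it fell by 0.85 (adjusted p 0.0150) in the fit on fragments, opposite in direction to the members that rose. The first call was lost with TPM (adjusted p 0.152), with no filter on low values and when any 1 of 4 of the 6 libraries was left out (adjusted p up to 0.0999). KLK1 reached the mean of 1 FPKM only through the control libraries. KLK2 and KLK3, which are prostate proteases, KLK4, an enamel protease, KLK15 and the pseudogene KLKP1 held at most 11 fragments summed over a group.

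Antisense and intergenic RNAs lie among the members. AC011483.1, an antisense gene running from within KLK6 to beyond KLK9, had 11, 15 and 16 fragments in the dacomitinib libraries and 5, 3 and 4 in the control libraries, and averaged 1.54 ± 0.274 FPKM with dacomitinib and 0.510 ± 0.148 FPKM in controls. AC011473.3, opposite KLK12, averaged 2.03 ± 0.596 FPKM with dacomitinib and 0.282 ± 0.370 FPKM in controls (SD, n = 3 each). Both reached the mean of 1 FPKM only through the dacomitinib libraries and fell short of the filter on fragments, so no test is given for them. AC011473.1, between KLK12 and KLK13, held 21 fragments with dacomitinib and 3 in controls and was not tested. AC011483.2, opposite 12.2% of the KLK5 and 20.3% of the KLK6 exon bases, averaged 0.536 FPKM with dacomitinib and 0.543 FPKM in controls. AC011473.2, opposite part of KLK10, AC011483.3 and AC011523.1 were at 0 in all 6 libraries. The pseudogene PPIAP59 was not called (0.51, adjusted p 0.185 by limma). No pair of the 10 members, of 45, shared a stretch of 75 bases in the GENCODE 29 transcripts.

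Beside the cluster, the 5 nearest protein-coding genes on each side with a mean of at least 1 FPKM were looked up. In the fit on FPKM 0 of these 10 were called higher and 3 lower, beside 25.4% of all genes called higher and 34.8% lower. The 3 were POLD1, the catalytic subunit of DNA polymerase delta, which fell by 1.62, C19orf48, which fell by 0.78, and ETFB, a subunit of the electron transfer flavoprotein, which fell by 0.62. The fit on fragments also called EMC10 (-0.65, adjusted p 0.000891 by limma), SPACA6 (-0.57, 0.0493) and ZNF649 (-0.50, 0.0271) lower. That made 6 lower and 0 higher in this fit, beside 32.7% of all genes lower and 29.5% higher. NR1H2, JOSD2, CTU1 and ZNF175 were called in neither fit. With TPM 3 of the 10 were called higher (NR1H2, JOSD2 and ZNF175) and 3 lower, beside 42.0% and 19.8% of all genes.

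**Figure D3:**
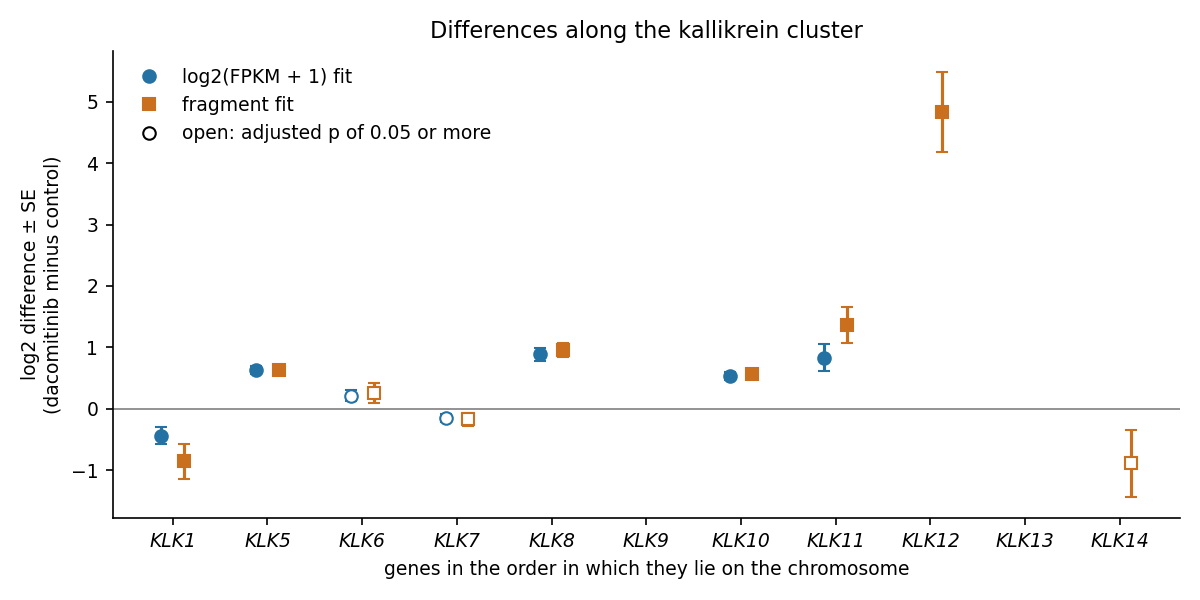
Difference of KLK1 and the 10 kallikreins in the order in which they lie on the chromosome, dacomitinib minus control, ± SE, on the log2 scale. Circles are the fit on log2(FPKM + 1) and squares the fit on fragments, with open symbols for an adjusted p of 0.05 or more. KLK5, KLK6, KLK8, KLK10, KLK11 and KLK12 lie above 0, with KLK6 open. KLK1, KLK7 and KLK14 lie below, with KLK7 and KLK14 open, and KLK9 and KLK13 have no value.

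SPINK5 (ENSG00000133710, chromosome 5, 148025683 to 148137289) encodes LEKTI, an inhibitor of several epidermal kallikreins whose loss causes Netherton syndrome. Its levels were 0.478, 0.385 and 0.459 FPKM in the dacomitinib libraries, against 4.30, 4.40 and 4.08 FPKM in the control libraries. The groups were far apart, with 98 fragments summed over the dacomitinib libraries and 827 over the control libraries. SPINK5 fell by 1.87 (SE 0.09, adjusted p 1.15e-05 by limma) on the log2(FPKM + 1) scale. It reached the mean of 1 FPKM needed for that fit only through the control libraries. In the fit on fragments, where its mean was at least 10 in both groups, it fell by 3.26 (SE 0.23, adjusted p 4.66e-10 by limma).

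Ratios of 2 genes within a library do not depend on how libraries were scaled. The ratio of KLK5 to SPINK5 was 220, 246 and 243 in the dacomitinib libraries and 15.1, 15.3 and 16.4 in the control libraries, which on average is 15.1-fold higher with dacomitinib. The ratio of KLK7 to SPINK5 averaged 20.3 ± 1.64 with dacomitinib and 2.34 ± 0.113 in controls, 8.64-fold higher. The ratio of KLK5 to KLK7 was 11.7, 11.2 and 12.2 with dacomitinib and 6.18, 6.48 and 7.40 in controls, 1.75-fold higher, with no overlap between the groups. The ratio of KLK8 to KLK7 averaged 2.11 ± 0.0872 with dacomitinib and 0.981 ± 0.200 in controls (SD, n = 3 each). For each of these 4 ratios the groups did not overlap, and a two-sided exact permutation test gave p = 0.1, before and after Benjamini-Hochberg adjustment over the 4. That is the smallest p that 3 against 3 libraries allow.

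**Figure D4:**
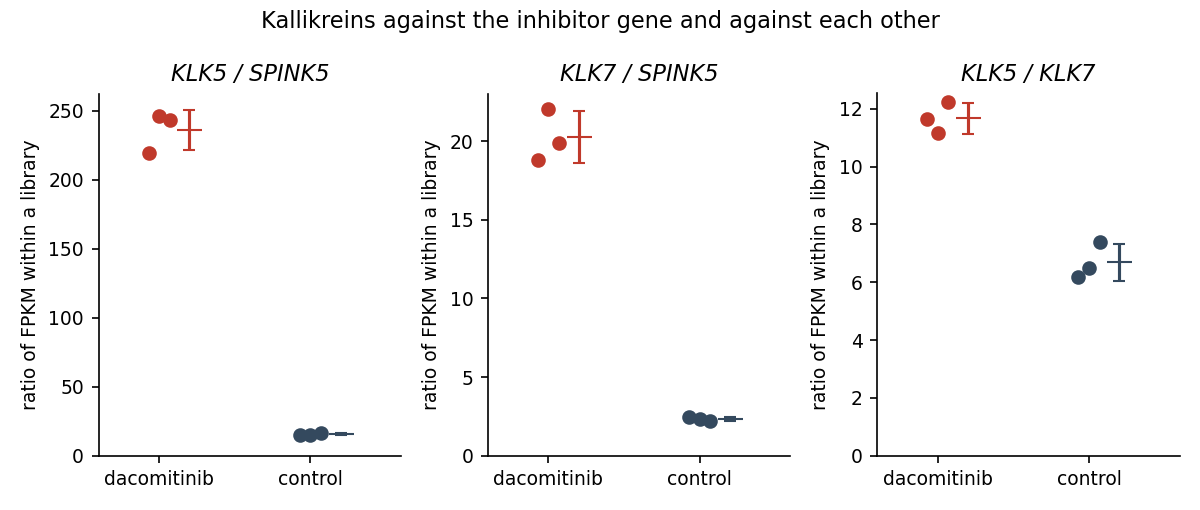
Ratio of FPKM between 2 genes within each library, with dacomitinib libraries left of control libraries and each axis starting at 0. Points are libraries, and lines are the mean ± SD of 3. The ratios to SPINK5 stand at 220 to 246 with dacomitinib against 15.1 to 16.4 in controls for KLK5, a wider gap than for KLK5 over KLK7.

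Of 14 activators of the cascade, 7 were tested, of which 1 rose and 4 fell, with a median of -0.34. Among all genes in the fit on FPKM, 25.4% were called higher and 34.8% lower. PLAU, urokinase, which turns plasminogen into plasmin, rose by 0.72 (adjusted p 0.000370 by limma) to 55.6 ± 6.40 FPKM with dacomitinib, against 33.2 ± 1.26 FPKM in controls. TMPRSS11E, a transmembrane serine protease, fell to 0.292 ± 0.241 FPKM with dacomitinib, against 1.98 ± 0.623 FPKM in controls (adjusted p 0.00322 by limma). It passed the filter on FPKM only through the control libraries. FURIN, a proprotein convertase, fell by 0.54 (adjusted p 0.000304 by limma). ST14, matriptase, a membrane protease that activates prokallikreins, averaged 28.5 ± 3.30 FPKM with dacomitinib and 37.7 ± 1.06 FPKM in controls (SD, n = 3 each). It fell by 0.40 (adjusted p 0.00508 by limma), a call that was lost on the TPM scale, at -0.09. PRSS8, prostasin, averaged 14.5 ± 0.486 FPKM with dacomitinib and 14.3 ± 1.99 FPKM in controls and was not called (0.03, adjusted p 0.830), though with TPM it was called higher, at 0.34 with an adjusted p of 0.0150 by limma. With TPM, 2 of the 7 activators were called higher and 2 lower, with a median of -0.04, beside 42.0% and 19.8% of all genes.

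Of 22 inhibitors of kallikreins or their activators, 9 were tested, of which 4 rose and 2 fell, with a median of 0.09. The shares over all genes were 25.4% higher and 34.8% lower. SPINK5 was the member of this list that fell furthest. SLPI, the secretory leukocyte protease inhibitor, averaged 28.0 ± 1.38 FPKM with dacomitinib and 12.8 ± 1.28 FPKM in controls and rose by 1.07 (adjusted p 4.75e-05 by limma). SERPINA1, antitrypsin, averaged 2.07 ± 0.147 FPKM with dacomitinib and 0.233 ± 0.125 FPKM in controls and rose by 1.32 (adjusted p 0.000367 by limma). It passed the filter on FPKM only through the dacomitinib libraries. WFDC2, a secreted protein with whey acidic protein domains, rose by 1.34 (adjusted p 0.00327). With TPM, 7 of the 9 inhibitors were called higher and 2 lower, with a median of 0.40, beside 42.0% and 19.8% of all genes.

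Of 20 substrates and receptors, 11 were tested, of which 7 rose and 3 fell, with a median of 0.45 (0.77 with TPM). The shares over all genes in the fit on FPKM were 25.4% higher and 34.8% lower. The corneodesmosome substrates were barely detected, with 24 fragments of CDSN summed over the dacomitinib libraries and 6 over the control libraries, and 1 fragment of DSG1 in each group. FLG, profilaggrin, whose processing is part of cornification, averaged 9.17 ± 0.480 FPKM with dacomitinib and 2.47 ± 0.147 FPKM in controls (SD, n = 3 each) and rose by 1.55 (adjusted p 5.18e-06 by limma). SMPD1, acid sphingomyelinase, rose by 0.75 (adjusted p 0.000339), and F2R, the receptor PAR1, rose by 0.71 (adjusted p 0.000396). F2RL1, the receptor PAR2, averaged 16.5 ± 1.02 FPKM with dacomitinib and 18.0 ± 0.746 FPKM in controls. It was not called (-0.12, adjusted p 0.121 by limma), and with TPM it was called higher, at 0.19. IL1B, the precursor of interleukin-1 beta, fell by 1.43 (adjusted p 4.68e-05), NRG1, an EGF-family ligand, fell by 1.55 (adjusted p 1.34e-05), and PLAUR, the urokinase receptor, fell by 0.70 (adjusted p 0.00242).

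Of 14 other proteases of the outer epidermis, 9 were tested, of which 3 rose and 3 fell, with a median of 0.07 (0.38 with TPM). Over all genes, 25.4% were called higher and 34.8% lower. The cathepsins CTSL, CTSD and the lysosomal tripeptidyl peptidase TPP1 rose by 0.59, by 0.54 and by 0.40. BLMH, bleomycin hydrolase, which degrades filaggrin peptides, averaged 3.33 ± 0.367 FPKM with dacomitinib and 8.21 ± 0.711 FPKM in controls and fell by 1.09 (adjusted p 8.26e-05 by limma). The cathepsins CTSC and CTSV fell by 0.49 and 0.28, and the CTSV call was lost with TPM (-0.01). Of 16 differentiation genes, 5 were tested, of which 3 rose and 0 fell, with a median of 0.92 (1.68 with TPM), beside the same 25.4% and 34.8% of all genes. HRNR, hornerin, rose by 1.90 (adjusted p 6.48e-06 by limma) to 9.40 ± 0.756 FPKM with dacomitinib, against 1.78 ± 0.192 FPKM in controls. FLG2, filaggrin 2, rose by 1.08, and TGM1, a transglutaminase of the cornified envelope, rose by 0.92. KRT10 and IVL were not called, and KRT1 had 13 fragments with dacomitinib and 0 in controls. Of 6 other kallikreins, KLK1 was the only one tested. SERPINA1, TGM1 and FLG2 reached the mean of 1 FPKM only through the dacomitinib libraries, and SPINK5, TMPRSS11E and KLK1 only through the control libraries. In the fit on fragments all 6 had a mean of at least 10 in both groups and were called in the same direction.

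**Figure D5:**
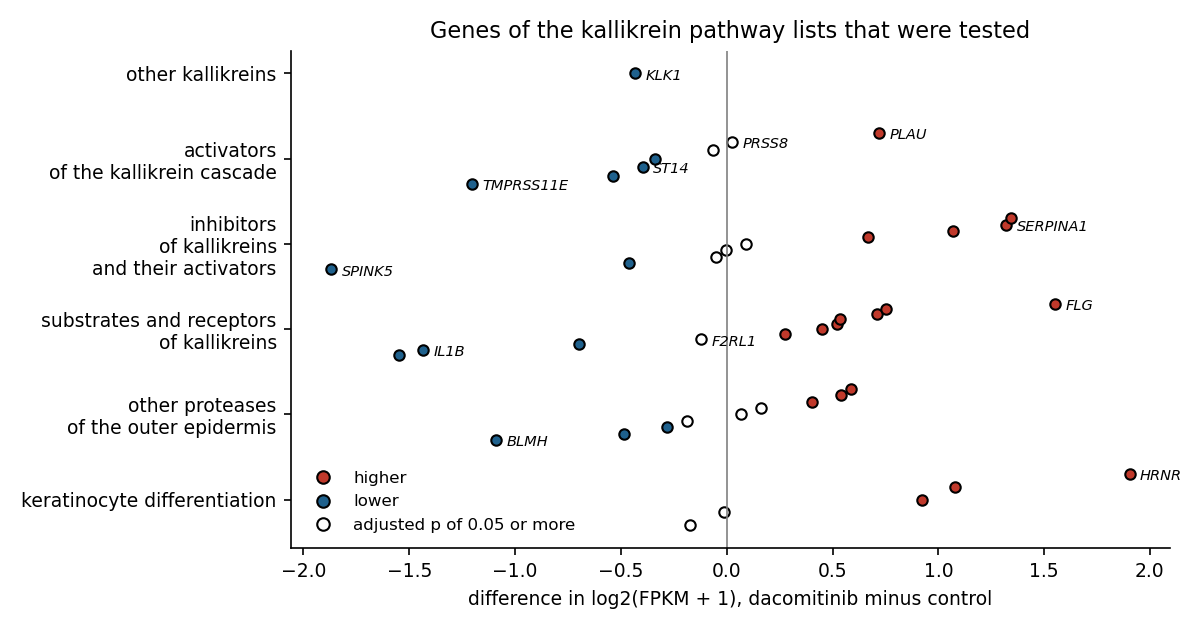
Difference in log2(FPKM + 1), dacomitinib minus control, of each tested gene of the 6 lists around the kallikrein cascade. Each point is a gene, filled where the adjusted p was under 0.05. SPINK5 lies furthest to the left at -1.87 and HRNR furthest to the right at 1.90.

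Markers of cell types bear on the label of the line. The calls below stand beside 25.4% of all genes called higher and 34.8% lower in the fit on FPKM. In the fit on fragments these shares were 29.5% and 32.7%, and with TPM 42.0% and 19.8%. The basal keratinocyte markers summed to 913 to 1083 FPKM with dacomitinib and 1150 to 1220 FPKM in controls, with 2 of 7 tested higher and 3 lower (3 higher and 1 lower with TPM), while KRT1 and LOR of differentiated keratinocytes were at or near 0. The 7 differentiated keratinocyte markers summed to 18.4 to 21.9 FPKM with dacomitinib and 11.7 to 14.2 FPKM in controls, with FLG higher of the 3 tested. Endothelial markers summed to 10.6 to 13.5 FPKM with dacomitinib and 1.87 to 2.20 FPKM in controls, with KDR at 0. CDH5 made up most of that sum, at a mean of 10.0 FPKM with dacomitinib and 1.15 FPKM in controls. Of these 5, 3 were tested in the fit on fragments and all 3 rose, CDH5 by 3.11, VWF by 1.84 and PECAM1 by 0.77 (adjusted p 0.0180 by limma for PECAM1). The PECAM1 groups overlapped in FPKM, and its call held in 8 of 11 alternatives. CLDN5 was not tested and went the other way, with 0 fragments with dacomitinib and 6 in controls. Fibroblast markers summed to 2.28 to 3.62 FPKM with dacomitinib and 0.853 to 1.24 FPKM in controls, with COL1A2 and PDGFRA at 0. Of these 7, 3 were tested in the fit on fragments and 2 were called higher, COL3A1 by 1.09 and DCN. The third, COL1A1, was lower but not called, at -0.70 with an adjusted p of 0.117 by limma. Of those not tested, VIM had 0 fragments with dacomitinib and 3 in controls, while LUM had 43 and 1. DCN had 267, 136 and 181 fragments in the dacomitinib libraries and 6, 2 and 3 in the control libraries, and passed the filter only through the dacomitinib libraries. Melanocyte markers summed to 3.28 to 4.13 FPKM with dacomitinib and 2.41 to 2.77 FPKM in controls, with 3 of 5 tested in the fit on fragments and 1 called higher, PMEL by 1.10 (adjusted p 0.000830 by limma). Leukocyte and sweat gland markers stayed under 0.25 FPKM in sum in every library. The part of these markers in the kallikrein differences was not tested.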

How the data were processed

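The tools named in the submitters' processing notes, with build GRCh38 and no role stated, are HISAT2, featureCounts, DESeq2 1.20.0, CASAVA and fastp. The authors deposited FPKM per gene. Multiplied by gene length these were whole fragments for 100% of values (tolerance 0.01), so fragments were recovered. The median ratio of the deposited FPKM to the geometric mean was 1.01 in every library.

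For FPKM, limma 3.58.1 (R 4.3.3) was run on log2(FPKM + 1) with its trend option, for 13748 genes with a mean of at least 1 FPKM. Fragments were tested with limma-voom with the deposited library sizes, for 16278 genes with a mean of at least 10. P-values were adjusted over all genes tested (Benjamini-Hochberg, threshold 0.05). Both fits were tested on simulated data in which few genes were changed, which does not bear on how the libraries were scaled.

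All 10 members are named, as are all genes of the cluster, 10 flanking genes, SPINK5, ST14, PRSS8, CDSN, DSG1 and F2RL1, and up to 3 genes per list with the largest rise and fall. The members and lists were chosen with earlier results of these data known. The result of 1 gene that this rule names is not reported here.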

Additional observations from a re-analysis of the deposited data

How the results depend on the processing

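Of the settings tried, 17 for FPKM and 11 for fragments, none changed a call of KLK5, KLK8 or KLK10. Nor did any change the call of KLK12 where it was tested, but KLK12 passed the filter on fragments only through the dacomitinib libraries. The median ratio settings repeated the deposited scaling and could not change a call. TPM gave 5779 genes called higher and 2721 lower, against 3493 and 4778 as deposited. KLK6 was called higher with TPM (0.55), quantile scaling (0.29) and, in fragments, the libraries' own sums (0.43). KLK7 changed sign with TPM (0.15), quantile scaling (0.013) and own sums (0.0037), as did F2RL1 (0.19, 0.11 and 0.046). Leaving out 1 library gave 3 to 5 of 6 tested members higher and 0 to 1 lower in the FPKM fit. Of all genes called in these fits, 41.0% to 41.7% were higher. The differences were 0.16 to 0.28 for KLK6, -0.21 to -0.12 for KLK7 and 0.59 to 1.01 for KLK11. Over the same omissions PRSS8, called higher with TPM (0.34), ranged from -0.079 to 0.11 in FPKM and from -0.087 to 0.12 in fragments, negative without the third control library in both and, at -0.000792, without the first dacomitinib library in fragments. The cause was not tested. Libraries of the same number showed no shared deviation (correlations 0.0267, -0.0158 and 0.0402). That cannot exclude that they were prepared in pairs, and the dacomitinib numbers are only those of the columns. With the replicate block 4 of 6 tested members were higher in FPKM, with KLK5 at 0.63. In fragments 5 of 8 were higher, among them KLK12, which passed that filter only through the dacomitinib libraries. Of all genes called with the block, 41.4% were higher in FPKM and 47.4% in fragments. KLK1 lost its FPKM call with the block (-0.43, adjusted p 0.0652 by limma). With 1 library left out KLK11 ranged from 0.86 to 1.71 in fragments, called higher in each case. KLK9, KLK13 and KLK14 rest on few fragments.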
